A study of Tupaia belangeri with 8 samples.

Results

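miR-191-5p and miR-425-5p (tch-miR-191-5p and tch-miR-425-5p in the deposited table) are 2 mature miRNAs that are cut from neighbouring hairpins of a single primary transcript. They were chosen by name from its 384 miRNAs because their ratio varied widely between libraries, so the spread of that ratio is a description here and carries no test. Small RNA was sequenced from cultured neurons taken from newborn tree shrews (Tupaia belangeri), small mammals close to primates, in 8 libraries. The 4 PBS libraries came from control wells that were rinsed with PBS and given medium alone, and the 4 METH libraries from wells given 5 µl of a methamphetamine stock labelled 100 mmol in 995 µl of medium, all collected after 24 h. The medium of all wells was Neurobasal-A, supplemented with 2% B-27 and with 15% fetal bovine serum, in which dividing non-neuronal cells can also grow. Whether libraries of a group represent separate animals is not stated in the labels, so p-values measure only the spread between these libraries, which may be technical.

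A miRNA hairpin is cut from its primary transcript by Drosha in the nucleus and trimmed by Dicer in the cytoplasm, and 1 strand is then held by an Argonaute protein that it guides to target mRNAs. Hairpins of a single transcript are made together, but each is cut on its own, and each mature strand has its own lifetime. In humans the miR-191 and miR-425 hairpins lie in an intron of DALRD3. In the RefSeq annotation of the tree shrew assembly TupChi_1.0, MIR191 and MIR425 are adjacent entries, between NDUFAF3 on one side and, past a pair of unnamed protein-coding genes, WDR6 on the other. miR-191-5p is abundant in many tissues, is often used as a reference in miRNA PCR assays, and takes part in the shrinkage of dendritic spines in rodent neurons. miR-425-5p represses NPPA, the precursor of atrial natriuretic peptide, in humans, and represses the necroptosis kinase Ripk1 in mouse models of Parkinson's disease. The table lists neither 3p arm of these hairpins under a known name.

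Library totals over the listed miRNAs ranged from 339243 to 7334789 reads, with the libraries numbered 4 the deepest in both groups. The libraries METH 3, PBS 1 and PBS 3 were set off from the rest. On a first principal component computed without miR-191-5p and miR-425-5p, which held 65.7% of the variance, these 3 libraries lay between −18.61 and −13.00 and the others between 6.33 and 11.98. Of 5 listed neuronal markers 4 matched the table, and their summed level was 18608 to 91525 TPM in PBS and 19113 to 90354 TPM in METH. miR-124-3p, the defining neuronal miRNA, matched no listed name. Of 4 smooth muscle and fibroblast markers 3 matched, at 16689 to 60941 TPM in PBS and 13571 to 59378 TPM in METH. In a bulk library, fewer cells of a type and less of a miRNA per cell cannot be told apart.

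miR-191-5p was read 6779, 1434, 7350 and 26322 times in the PBS libraries (numbered 1 to 4) and 1778, 3019, 5605 and 19710 times in the METH libraries. miR-425-5p was read 540, 1449, 411 and 4574 times in the PBS libraries and 1099, 1115, 283 and 4213 times in the METH libraries. Both were therefore well covered, with miR-191-5p between the 14th and the 34th most abundant miRNA of its library and miR-425-5p between the 33rd and the 62nd. No bound of the 95% Wilson intervals of these shares lay more than 0.0434 percentage points from its share, and the interval covers counting error only, since the protocols mention no molecular identifiers.

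Reads of miR-191-5p per read of miR-425-5p numbered 12.6, 0.990, 17.9 and 5.75 in the PBS libraries and 1.62, 2.71, 19.8 and 4.68 in the METH libraries. The ratio ran over a 20.0-fold range, from equal numbers of reads in PBS 2 to 19.8 reads of miR-191-5p for each of miR-425-5p in METH 3, and the groups overlapped over nearly all of it. Exact 95% intervals for counting error were narrow beside that range, at 0.919 to 1.07 in PBS 2 and 17.6 to 22.4 in METH 3. In order of the ratio, METH 3 and PBS 3 (16.2 to 19.8) had overlapping intervals, while the intervals of all other neighbours were separate. The ratio needs no scaling between libraries, but it counts reads and not molecules, because the efficiency with which each sequence joined the adapters is not known. miR-425-5p made up 50.3% of the reads of both in PBS 2 and 38.2% in METH 1, but 7.38%, 5.30% and 4.81% in PBS 1, PBS 3 and METH 3.

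**Figure D1:**
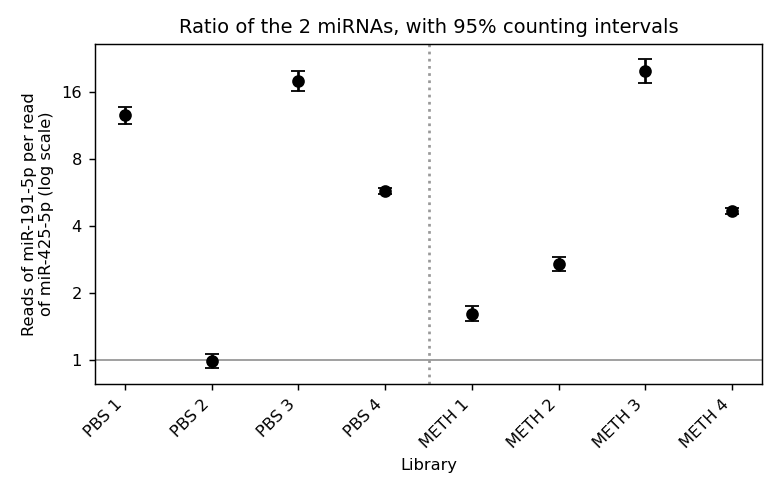
Reads of miR-191-5p per read of miR-425-5p (log axis) in each of the 8 libraries, with exact 95% intervals for counting error as bars and a line at 1. PBS and METH libraries, parted by the dotted line, both span most of the range, from 0.990 in PBS 2 to 19.8 in METH 3.

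The 3 libraries with the highest ratio were the 3 that stood apart on all other miRNAs. miR-21-5p, the most abundant miRNA and one induced by injury in many cell types, held 7.53%, 6.95% and 5.26% of the reads in PBS 1, PBS 3 and METH 3, and 33.5% to 49.3% in the others. Predicted miRNAs held 23.4%, 22.3% and 28.1% in those 3 libraries and at most 8.18% elsewhere. The smooth muscle and fibroblast miRNA miR-143-3p reached 1890, 4925 and 1117 normalised CPM there, against 24319 to 80855 in the remaining libraries. Of the same list, miR-199b-3p was at 9393, 13905 and 11001 normalised CPM there and 12849 to 29777 elsewhere, a slight overlap. miR-10b-5p, at 36.1, 16.8 and 7.90 there and 5.27 to 39.8 elsewhere, did not follow the division. The 3 matched markers of that list summed to 16689, 34689 and 13571 TPM in the 3 libraries and to between 33765 and 60941 TPM elsewhere. The sum of the neuronal markers did not follow this division, at 91525 TPM in PBS 1, 90354 in METH 3, 19234 in PBS 3 and 18608 to 49886 elsewhere. Its members differed. miR-218-5p did follow the division, at 467, 192 and 495 normalised CPM in the 3 libraries and 1641 to 3549 elsewhere. miR-129-5p leaned the other way with some overlap, at 3841, 1557 and 13466 there and at most 1849 elsewhere. Neither miR-9-5p nor miR-128 followed the division. The leukocyte and microglial miR-155-5p was at 3110, 4778 and 5344 TPM in the 3 libraries and between 390 and 883 TPM elsewhere. Markers were matched by name, so one listed under another name would be missed. Of 4 listed blood-lineage markers only miR-142 matched, with 0 reads in PBS 1, PBS 2, METH 2 and METH 3. These zeros allow up to 5.70, 3.85, 4.41 and 8.84 TPM (3 counts). miR-142 was at 7.72 TPM in PBS 3 (3 counts), 1.09 in PBS 4, 0.746 in METH 4 and 56.0 in METH 1. The 4 epithelial markers summed to 549 TPM in PBS 1 and 513 in METH 3 but to 46.3 in PBS 3, and to at most 23.1 elsewhere, and the oligodendrocyte miRNA miR-219-5p reached at most 0.597 TPM in any library. The part of these differences in the ratio was not tested. Without the 3 libraries the ratio still ran over a 5.81-fold range.

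How much of this spread belonged to each miRNA depended on the scale. As deposited TPM, miR-191-5p was at 12887, 1841, 18923 and 3589 in the PBS libraries and at 2765, 4436, 16522 and 2940 in the METH libraries, a 10.3-fold range. On the same scale miR-425-5p was at 1027, 1860, 1058 and 624 in the PBS libraries and at 1709, 1638, 834 and 629 in the METH libraries, a 2.98-fold range. With total-count scaling the wider spread was that of miR-191-5p, whose log2 level had an SD of 1.31 over the 8 libraries, against 0.63 for miR-425-5p and a median of 1.10 over the 166 miRNAs tested.

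After TMM scaling, which sets libraries level on the bulk of their miRNAs, miR-191-5p was at 8740, 2832, 10281 and 4244 normalised CPM in the PBS libraries and at 3727, 4386, 14762 and 3713 in the METH libraries. miR-425-5p was at 696, 2862, 575 and 738 normalised CPM in the PBS libraries and at 2304, 1620, 745 and 794 in the METH libraries. On this scale the levels of both spread alike, with an SD of log2 level of 0.85 for miR-191-5p and 0.89 for miR-425-5p, and a median of 0.95 over the miRNAs tested. Of the 166 miRNAs, 65 had a smaller SD than miR-191-5p, the common PCR reference, and 106 had one with total counts only.

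The high and low libraries were not the same for both miRNAs. miR-191-5p was high in PBS 1, PBS 3 and METH 3 and lay between 2832 and 4386 normalised CPM in all 5 others. miR-425-5p was high in PBS 2, METH 1 and METH 2, and the deep libraries PBS 4 and METH 4, at 738 and 794, lay near the 575 to 745 of the 3 libraries that stood apart. As TPM, PBS 4 and METH 4 were the lowest of all 8 libraries for miR-425-5p.

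**Figure D2:**
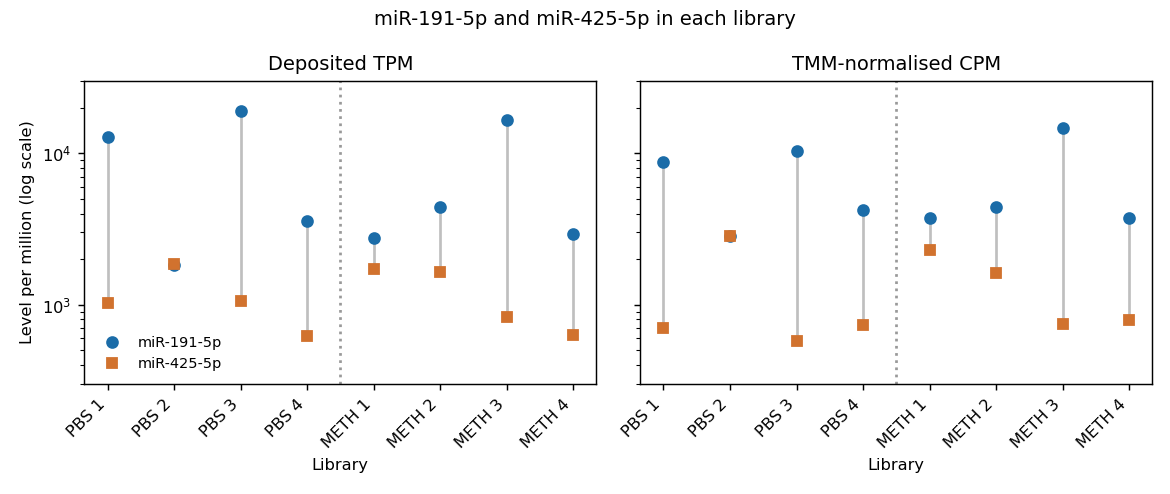
Level of miR-191-5p (circles) and miR-425-5p (squares) in each library on a log axis, as deposited TPM on the left and as TMM-normalised CPM on the right, with a grey line joining the 2 values of a library. The gap is widest in PBS 1, PBS 3 and METH 3 and closes in PBS 2, where the 2 symbols overlap on both scales.

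Neither miRNA passed the test between METH and PBS. The mean level of miR-191-5p was 6524 ± 3552 in the PBS libraries and 6647 ± 5419 in the METH libraries (normalised CPM, SD, n = 4 each), with a log2 fold change of METH over PBS of 0.03 (SE 0.66, 95% bounds −1.41 and 1.46, edgeR adjusted p = 0.999). That of miR-425-5p was 1218 ± 1098 in the PBS libraries and 1366 ± 743 in the METH libraries (n = 4 each), with a log2 fold change of 0.17 (SE 0.65, 95% bounds −1.27 and 1.60, edgeR adjusted p = 0.999). The groups overlapped for both. The intervals reach from 0.376-fold to 2.76-fold for miR-191-5p and from 0.416-fold to 3.03-fold for miR-425-5p, so changes inside these bounds are not excluded. Of the 2 miRNAs 0 were called, and of all 166 tested edgeR called 0 (0%). An unadjusted p under 0.05 was found for 0 of them in edgeR and for 1 (0.602%) in DESeq2, which also called 0 after adjustment. The median log2 fold change of all 166 was 0.21 with TMM, 0.05 with DESeq2 size factors and −0.14 with total counts. Neither miRNA kept a direction over all settings. The sign changed with the scaling, the filter and the libraries kept for miR-191-5p, and only with the libraries kept for miR-425-5p.

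Single libraries decided the sign and size of both estimates. Without METH 3 that of miR-191-5p was −0.81 (SE 0.56, edgeR adjusted p = 0.866), and without PBS 2 that of miR-425-5p was 1.09 (SE 0.60, edgeR adjusted p = 0.999). Without PBS 1, PBS 3 and METH 3 the values were 0.14 (SE 0.41) for miR-191-5p and −0.13 (SE 0.63) for miR-425-5p.

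**Figure D3:**
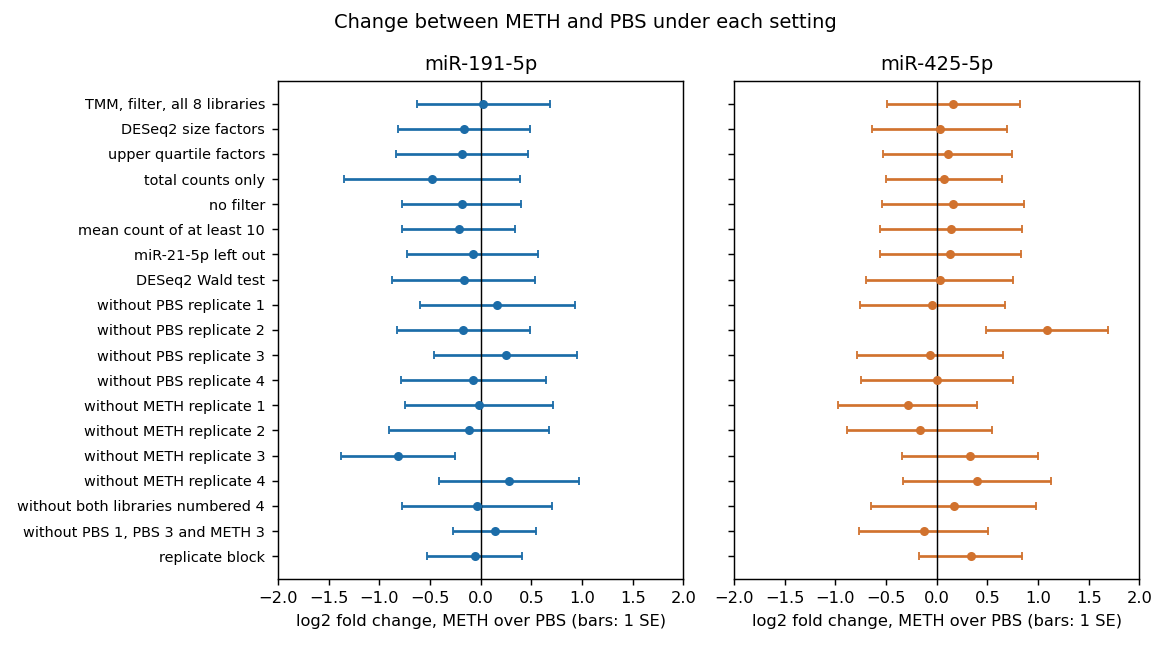
log2 fold change of METH over PBS for miR-191-5p (left) and miR-425-5p (right) under each setting, with 1 standard error as bars. Values lie on both sides of 0 for both miRNAs, from −0.81 to 0.28 for miR-191-5p and from −0.29 to 1.09 for miR-425-5p.

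The ratio did not separate the groups either. The log2 of miR-425-5p over miR-191-5p was −2.58 ± 1.86 in PBS and −2.17 ± 1.56 in METH (SD, n = 4 each), a difference (METH minus PBS) of 0.41. An exact two-sided permutation test over 70 splits, with a smallest possible p of 0.0286, gave p = 0.771, and 3 of the 4 METH values exceeded the PBS mean. Without PBS 2 the difference was 1.28 (exact permutation p = 0.257), without METH 3 it was 1.13 (exact permutation p = 0.371), and without the 3 libraries that stood apart it was −0.20 (exact permutation p = 0.9, smallest possible 0.1). Libraries of the same number differed by 2.96, −1.45, −0.15 and 0.30 for the numbers 1 to 4 (METH minus PBS). In the 2 deepest libraries the ratios of miR-191-5p to miR-425-5p, 5.75 (exact interval 5.58 to 5.94) in PBS 4 and 4.68 (4.53 to 4.84) in METH 4, differed by more than counting error but by far less than the spread within either group.

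The same spread was measured in other miRNAs known to come from shared transcripts. Of 45 listed pairs from mammalian clusters, 16 had both miRNAs tested, and 13 of these also have neighbouring hairpins (within 10 kb) in RefSeq. The SD over the 8 libraries of the log2 ratio was 1.60 for miR-425-5p and miR-191-5p, against a median of 0.67 for the 16 pairs and of 1.43 for all 13695 pairs of tested miRNAs. Of the 16 cluster pairs 2 had a larger SD, as did 41.1% of all pairs. Without both libraries numbered 4 the SD was 1.89, and 28.2% of all pairs had a larger one. Without the 3 libraries that stood apart it was 1.05, with a median of 0.47 for the cluster pairs, 0 of which were larger, and of 0.94 for all pairs. In those remaining libraries, 3 of 25 pairs of tested miRNAs with neighbouring hairpins in RefSeq had a larger SD, up to 1.58.

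The steadiest cluster pairs were let-7a-5p and let-7f-5p of the differentiation-promoting let-7 family (SD 0.23), miR-93-5p and miR-25-3p of a cluster paralogous to miR-17-92 (0.36), and miR-221-3p and miR-222-3p, which promote cell division (0.41). let-7a-5p had as few as 9 reads in a library, and its reads could be shared with near-identical family members. The widest were miR-503 and miR-542-3p (2.75), miR-17-5p and miR-19b-3p of the growth-promoting miR-17-92 cluster (1.80), and miR-542-3p and miR-450a-5p (1.39). Each of these wide pairs had a library with 6 reads or fewer of a miRNA. Among the 9 cluster pairs with at least 100 reads of both miRNAs in every library, a limit set after the values were seen, the SD ranged from 0.36 to 1.39, below that of miR-425-5p and miR-191-5p. Over all 8 libraries, 8 of the 25 pairs whose hairpins neighbour in RefSeq had a larger SD, and the median of the 25 was 1.22. The cluster list did not hold every pair of its clusters, such as miR-20a-5p and miR-92a-3p or let-7e-5p and miR-125a-5p. Some pairs with a larger SD, not on that list, also met the limit of 100 reads. They were miR-363-3p and miR-92a-3p (SD 1.79, at least 1006 reads) and miR-20a-5p and miR-92a-3p (1.97, at least 217 reads). Also off that list and above the limit, miR-17-5p and miR-92a-3p (1.41) and let-7e-5p and miR-125a-5p (0.24) had a smaller SD. Some of these miRNAs also come from a further hairpin elsewhere, such as miR-19b-3p and miR-92a-3p, while miR-191-5p and miR-425-5p each have 1 hairpin in RefSeq.

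**Figure D4:**
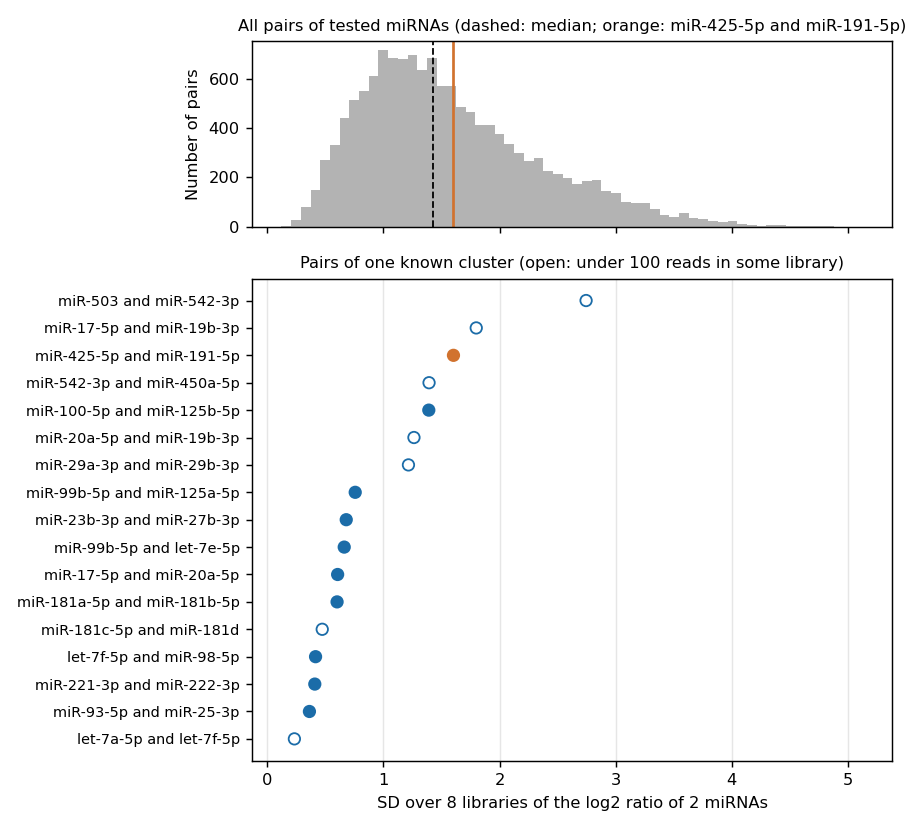
SD over 8 libraries of the log2 ratio of 2 miRNAs, as a histogram of all 13695 pairs of tested miRNAs (top) and as points for 16 pairs of one cluster and the miR-425-5p and miR-191-5p pair in orange (bottom), with open points where a miRNA had under 100 reads in some library. The orange line at 1.60 lies just right of the median of all pairs, 1.43, and the filled cluster points all lie to its left. Pairs off the cluster list are not drawn as points.

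Each miRNA had closer companions among the tested miRNAs than its partner from the same transcript. By the smallest SD of the log2 ratio over the 8 libraries, the most similar to miR-191-5p were miR-125b-5p, abundant in neurons and glia (SD 0.22), the predicted miRNA novel_26 (0.26) and let-7e-5p (0.27). miR-125b-5p stayed between 3.45 and 5.33 reads per read of miR-191-5p in all 8 libraries. The most similar to miR-425-5p were miR-450a-5p which lies in a cluster with miR-503 (SD 0.30), let-7i-5p (0.46) and miR-100-5p (0.48). miR-450a-5p stayed between 0.203 and 0.349 reads per read of miR-425-5p. In the order of similarity over 165 miRNAs, miR-425-5p came 119th for miR-191-5p and miR-191-5p came 110th for miR-425-5p. The pair was chosen for its widely varying ratio and the companions for their small SD. The closer companions and these ranks follow in part from those choices and are a description only.

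miR-125b-5p and miR-100-5p, each among the companions of 1 of the 2 miRNAs, are themselves on the list of mammalian cluster pairs. Their hairpins were not found as neighbours within 10 kb in RefSeq, so a shared transcript in the tree shrew is not shown. Their ratio spread in a like way. Reads of miR-100-5p per read of miR-125b-5p numbered 0.561, 6.37, 0.859 and 1.92 in the PBS libraries and 2.91, 2.15, 0.312 and 1.84 in the METH libraries, a 20.4-fold range with an SD of log2 ratio of 1.39. Reads of miR-425-5p per read of miR-191-5p numbered 0.0797, 1.01, 0.0560 and 0.174 in the PBS libraries and 0.618, 0.369, 0.0506 and 0.214 in the METH libraries. Both ratios were lowest in METH 3 and highest in PBS 2, followed by METH 1 and METH 2, with PBS 1, PBS 3 and METH 3 the lowest 3 of both. Since these companions were picked for their similarity, the likeness of both ratios follows in part from that choice, and the libraries fall into separate clusters, so no correlation is given.

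**Figure D5:**
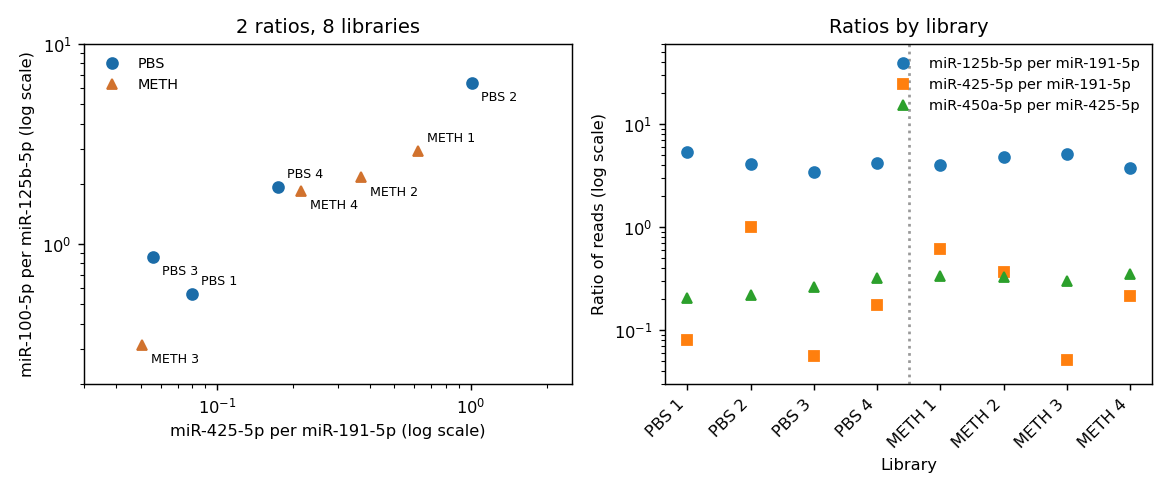
Left, reads of miR-100-5p per read of miR-125b-5p against reads of miR-425-5p per read of miR-191-5p (both log axes) in 4 PBS (circles) and 4 METH (triangles) libraries. Right, 3 ratios by library on a log axis, where miR-125b-5p to miR-191-5p (3.45 to 5.33) and miR-450a-5p to miR-425-5p (0.203 to 0.349) stay nearly level while miR-425-5p to miR-191-5p runs from 0.0506 to 1.01. The level ratios were picked for their small SD, and that of miR-425-5p to miR-191-5p for its wide spread.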

How the data were processed

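The authors deposited 1 table of raw read counts and TPM for 384 miRNAs (159 known names, 225 predicted) in 8 libraries, per the file headers. The deposited TPM equal the counts divided by the library total and scaled (largest difference 4.19e-05), with no length term. For aligner, miRNA reference and genome build, no name was given in the sources used here. Sample titles gave the groups. The table gives no sequences or positions, so names of neighbouring genes came from RefSeq TupChi_1.0, whose coordinates served only to find neighbouring hairpins.

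METH was compared with PBS on the deposited counts with edgeR 4.0.16 in R 4.3.3 (TMM, filterByExpr with minimum count 10 and minimum total 15, robust quasi-likelihood F test, Benjamini-Hochberg adjustment over the 166 miRNAs kept, threshold 0.05). The code was run on simulated counts, with a pass mark only at a dispersion (spread between libraries beyond counting) of 0.05. The common dispersion of these data was 0.615, so that pass mark does not show how often changes would be found here. DESeq2 1.42.0, other scalings and filters, and left-out libraries were alternatives. The log2 ratio used counts with 0.5 added and an exact permutation test. The SD of log2 levels used normalised CPM with 1 added. Named miRNAs are both members, the 3 with the smallest SD of the log2 ratio to each, the 3 steadiest and 3 widest cluster pairs, miR-21-5p and cell type markers. The members and lists were chosen with earlier results of these data known.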

Additional observations from a re-analysis of the deposited data

Results flagged for a closer look

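In the METH group, miR-191-5p in METH 3 lay far from the other 3 libraries, at 13.85 log2 normalised CPM (14762 normalised CPM, against 3713 to 4386). In the PBS group, miR-425-5p in PBS 2 lay far from the other 3, at 11.48 log2 normalised CPM (2862 normalised CPM, against 575 to 738). In both cases the gap to the nearest library divided by the range of the group, 0.879 and 0.845, exceeded Dixon's 95% critical value for 4 samples. Chance flags about 1 in 20 groups of miRNAs taken without regard to their values. That rate does not apply to these 2, which were chosen with their levels and varying ratio known, so both flags only describe where the libraries lie. The ratio stood apart in no library by this measure.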

How the results depend on the processing

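The count of 0 called miRNAs held under all 18 alternatives, and neither miRNA passed under any of them (edgeR or DESeq2 adjusted p 0.866 to 1.00 after rounding), but the direction of the small differences did not hold. For miR-191-5p, the log2 fold change of 0.03 became −0.48 with total counts, −0.17 with the size factors of DESeq2, −0.18 with upper quartile scaling, −0.18 with no filter, −0.22 with a mean count of at least 10, −0.078 with miR-21-5p left out, −0.17 in the DESeq2 test and −0.036 without both libraries numbered 4. Leaving out 1 library at a time gave −0.81 to 0.28 for miR-191-5p and −0.29 to 1.09 for miR-425-5p. Without PBS 1, PBS 3 and METH 3, miR-425-5p was at −0.13. For the log2 ratio, METH minus PBS, leaving out 1 library gave −0.11 to 1.28, leaving out those 3 gave −0.20, and the difference of the edgeR changes was 0.14. With the replicate number as a block, miR-191-5p was at −0.057, miR-425-5p at 0.34 and the ratio at 0.41 (exact sign-flip p = 0.75), with 0 miRNAs called. In their deviations from the group means, libraries numbered 1 to 4 correlated between the groups at −0.25, 0.54, 0.77 and 0.89, so the numbers were not taken as pairs because number 1 did not correlate, though PBS 2, PBS 3 and PBS 4 each correlated best with the METH library of their own number. Whether the other numbers mark a shared batch was not tested. The SD of the log2 ratio was 1.38 to 1.73 with 1 library left out, 1.89 without both libraries numbered 4 and 1.05 without the 3 libraries, and the SD of the log2 level of miR-191-5p was 1.31 with total counts. The cause of these shifts was not tested. Depth did not limit the ratio within a library, while the spread between libraries limited the comparison of the groups.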
